A study of Gallus gallus with 4 samples.

Results

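Cadherins and protocadherins are calcium-dependent adhesion molecules on the cell surface, and they form a single gene superfamily. The genes described here are all those of the deposited chick annotation whose symbol starts with *CDH* and a digit or with *PCDH*. This rule, which uses no measured value, took 34 genes of 30108, namely 20 *CDH* genes and 14 *PCDH* genes. By family they are 5 type I classical cadherins (*CDH1*, *CDH2*, *CDH3*, *CDH4* and *CDH15*), 12 type II classical cadherins (*CDH5* to *CDH12*, *CDH18* to *CDH20* and *CDH22*), the GPI-anchored *CDH13*, 2 others (*CDH17* and *CDH23*), 11 non-clustered protocadherins and 3 genes of the clustered protocadherins (*PCDHA6*, *PCDHB4* and *PCDHGC3*).

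Classical cadherins join neighbouring cells by binding the same or a related cadherin on the opposite membrane, and their cytoplasmic tails bind catenins that link them to actin. Type II cadherins and the non-clustered protocadherins are known from vertebrate retina and brain as labels that differ between neuron types and that help processes reach particular layers and partners. Clustered protocadherins are made as many isoforms from neighbouring genes, and in mouse amacrine cells they serve the recognition of a cell's own processes.

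Retinas of wild-type leghorn chicks were profiled by single-cell RNA sequencing, with 1 library in each of 4 groups, so there were no replicates. The eyes received an injection of clodronate liposomes, which deplete microglia, or of saline at P6, then NMDA, which is toxic to inner retinal neurons, or saline at P10, and the retinas were collected 24 h after the last injection. The groups were saline, clodronate+saline, NMDA and clodronate+NMDA, all dissociated with papain and prepared with 10x 3′ reagents, and the number of animals behind a library was not given in the sources used here. Values for 4 libraries are given below in that order. The treatment and the library cannot be told apart in any comparison.

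The libraries held 20614413 to 27033560 UMIs (unique molecular identifiers, counted transcripts), and 5782 to 9683 cells per library passed the filters, with a median of 1323 to 1543 UMIs per cell. The genes of the rule carried 0.609% to 0.730% of the UMIs of those cells. Between 60 and 152 cell barcodes occurred in both libraries of a pair, at most 1.63% of either. The cells formed 22 clusters when the cadherin and protocadherin genes were left out of the clustering, and 15 of them could be named from markers. Named cells per library were 342 to 813 Müller glia (MG), 2675 to 5057 bipolar cells, 1401 to 2796 amacrine cells, 417 to 549 horizontal cells, 75 to 168 ganglion cells, 147 to 276 cones and 19 to 81 oligodendrocytes, and no cluster of microglia was found. MG fell into 1 cluster led by *OPTC* and *GLUL* that held 813 saline and 435 clodronate+saline cells but 0 NMDA and 2 clodronate+NMDA cells, and 1 led by *LRRC15* and *WNT6* that held 388 NMDA and 340 clodronate+NMDA cells.

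Levels are a gene's UMIs per 1000000 UMIs of the cells of a type (CPM), and square brackets give exact 95% intervals, which cover counting error only. Of the 34 genes, 30 had at least 20 UMIs in the kept cells. The 4 under that number were *CDH5*, the cadherin of endothelial cells, *CDH15*, the cadherin of muscle precursors, *CDH17*, at 0 UMIs, and *PCDHB4*. RefSeq (GRCg7b) placed 33 of them, and several lie side by side. *CDH3* (chromosome 11, 18511388 to 18517067) ends 601 bases before *CDH1* (18517669 to 18526385), and *CDH6*, *CDH18*, *CDH9*, *CDH10* and *CDH12* lie on chromosome 2. The entry *PCDHA6* overlaps 8 other RefSeq *PCDHA* entries and *PCDHGC3* overlaps 2 of its cluster, none of which has a feature of its own in the count tables, so each of the 2 may stand for reads of its whole cluster.

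**Figure D1:**
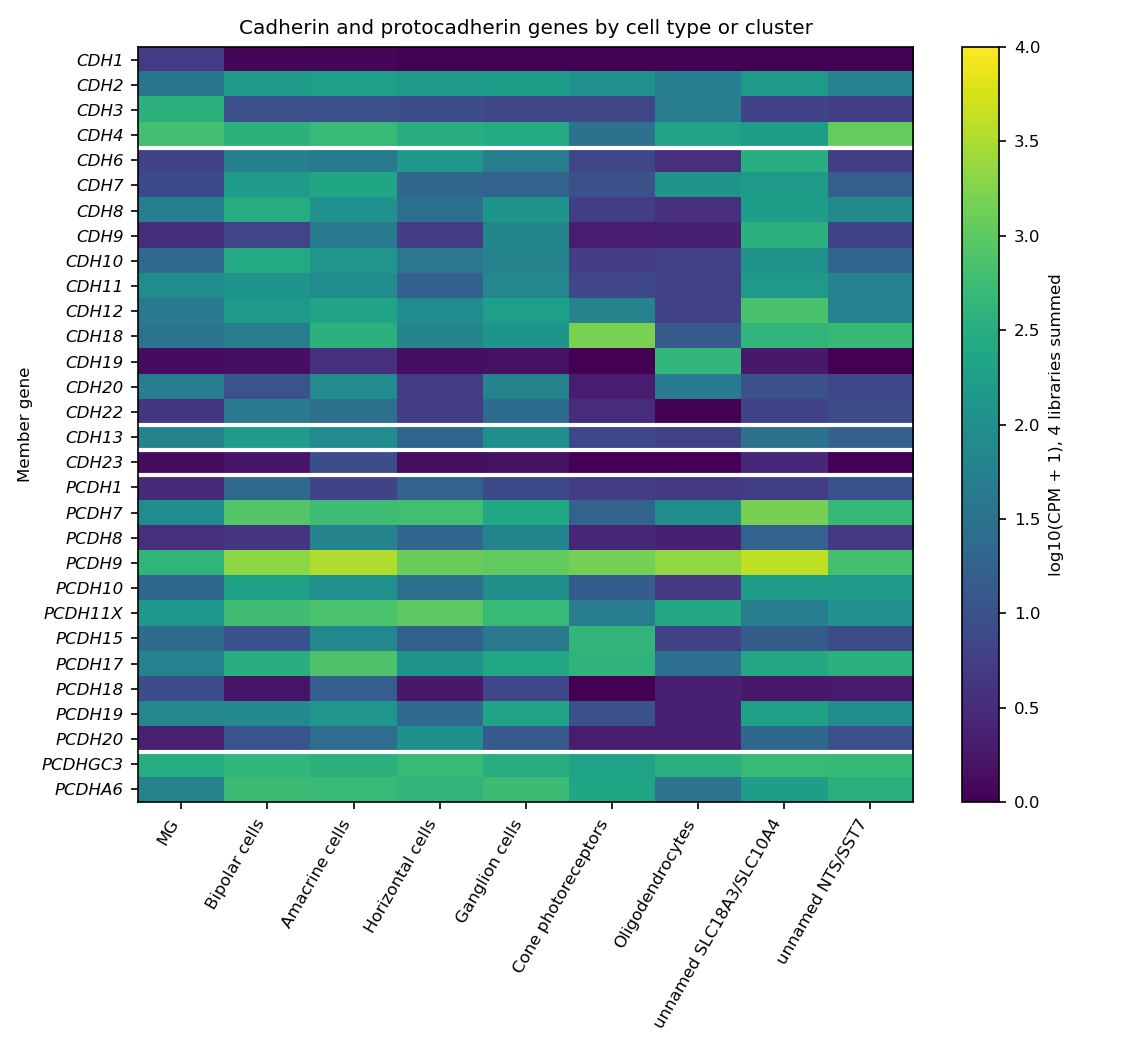
Levels of the 30 genes with at least 20 UMIs (vertical axis, by family) in the 7 named cell types and 2 unnamed clusters (horizontal axis), as log10(CPM + 1) over all 4 libraries pooled. *CDH3* is brightest in MG, *CDH19* in oligodendrocytes and *CDH18* in cones, whereas *PCDHGC3* is bright in every column.

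The levels of these genes differed between retinal cell types. Of 28 genes with enough UMIs to rank in every library, 16 had their highest level in the same named type in 4 of 4 libraries. No share over all genes is given for this count or for the like counts over clusters and sub-clusters below. Over the 7 named types, 25 of 29 measured genes (86.2%) differed by 8-fold or more between the highest and the lowest type, and 37.1% of all genes measured did so. The median of highest over lowest was 5.04 on the log2 scale for the cadherin and protocadherin genes and 2.34 for all genes.

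Among type I cadherins, *CDH3*, known in mammals as P-cadherin of epithelia and the pigment epithelium, marked MG. Its level in MG was 424, 429, 301 and 239 CPM in the saline, clodronate+saline, NMDA and clodronate+NMDA libraries. No other named type came near it: pooled over libraries, oligodendrocytes stood at 47.3 CPM [33.7 to 64.7], and the neurons between 6.02 and 8.63 CPM. A *CDH3* UMI was found in 73.2% of MG and in 1.17% of bipolar cells, whose median depths were 4173 and 1321 UMIs. After every cell was thinned to 1000 UMIs the shares were 30.2% and 0.872%. The unnamed FN1/PDE6B cluster, which held markers of both MG and rods, had 320 CPM. The neighbouring gene *CDH1*, E-cadherin of epithelia, had 33 of its 41 UMIs in MG, which is 3.98 CPM [2.74 to 5.59].

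*CDH4*, R-cadherin, first described in the retina, was also high in MG at 645, 745, 547 and 575 CPM. In contrast to *CDH3* it was shared with neurons, with 503 CPM in amacrine cells, 367 in bipolar cells, 332 in horizontal cells and 288 in ganglion cells, and cones had 31.7 CPM [24.1 to 41.0]. The unnamed NTS/SST7 cluster, made almost entirely of saline and clodronate+saline cells, had 1135 CPM. *CDH2*, N-cadherin, which joins neuroepithelial cells and synapses, went the other way. It lay between 105 and 181 CPM in the 5 neuron types and at 36.1 CPM [32.1 to 40.4] in MG.

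Cones were marked by *CDH18*, a type II cadherin of the nervous system, and by *PCDH15*, which forms the tip links of hair cells. *CDH18* in cones was 1853, 1431, 1590 and 1520 CPM, the highest of the named types in every library, and amacrine cells followed with 371 CPM. *PCDH15* in cones was 423, 466, 448 and 406 CPM, against 71.5 CPM in amacrine cells and 9.07 CPM in bipolar cells. In cones 88.8% of cells had a *CDH18* UMI and 55.5% a *PCDH15* UMI, and in bipolar cells 5.31% and 1.19%, with median depths of 1904 and 1321 UMIs. When cells with more than 2500 genes were kept, a cluster of 263 cells could be named as rods, and there *PCDH15* was 484 CPM but *CDH18* only 44.8 CPM [27.7 to 68.5], while cones in the same clustering had 1340 CPM of *CDH18*. These rods also had *PCDH7*, a non-clustered protocadherin, at 922 CPM [837 to 1013].

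Oligodendrocytes were the site of *CDH19*, a type II cadherin known from Schwann cell precursors and glia. Its level there was 566, 429, 415 and 311 CPM, and the next named type, amacrine cells, had 2.47 CPM [1.81 to 3.28]. A *CDH19* UMI was seen in 77.3% of oligodendrocytes [70.6% to 83.2%] and in 0.0601% of bipolar cells, and cones had 0 UMIs. The same cells also had *CDH7* at 118 CPM [95.5 to 144] and the protocadherin *PCDH9* at 2266 CPM, with a *PCDH9* UMI in 99.4% of them.

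Among the named types, horizontal cells stood out for *CDH6*, *PCDH11X* and *PCDH20*. *CDH6*, which in mouse retina labels certain ganglion and amacrine cells, was 128, 140, 126 and 138 CPM in horizontal cells, against 41.9 to 55.2 CPM in amacrine, ganglion and bipolar cells. The unnamed SLC18A3/SLC10A4 cluster, not counted among the amacrine cells, and a part of the bipolar cells had higher *CDH6*, as given below. *PCDH11X* was 1097, 970, 765 and 1103 CPM, against 733 CPM in amacrine cells. *PCDH20* was 140, 87.9, 76.2 and 97.5 CPM and the next type, amacrine cells, had 25.9 CPM. Ganglion cells had the highest *PCDH19*, a protocadherin that binds together with N-cadherin and whose mutation in humans causes epilepsy, at 232, 218, 216 and 199 CPM, and only MG of the NMDA library were higher (256 CPM).

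Pooled over libraries, amacrine cells led the named types for *PCDH17*, known for sorting axon and synaptic partners in mouse, with 916, 832, 518 and 684 CPM, and for *PCDH9*, with 4090, 3651, 2705 and 2320 CPM. *CDH7* was 227 CPM in amacrine cells and 163 CPM in bipolar cells. *CDH12* was 219 CPM in amacrine cells and 182 CPM in ganglion cells. *CDH20* was 82.8, 62.2 and 53.0 CPM in amacrine cells, ganglion cells and MG, and *CDH9*, which in mouse guides bipolar axons to their layer, was 67.7 CPM in ganglion cells and 42.6 CPM in amacrine cells. *PCDH8*, which in mouse takes part in the internalisation of N-cadherin, was near 61 CPM in both amacrine and ganglion cells, namely 60.8 [57.3 to 64.4] and 62.2 [51.7 to 74.1]. The unnamed SLC18A3/SLC10A4 cluster, led by the vesicular acetylcholine transporter, had *CDH6* at 339, *CDH9* at 362, *CDH12* at 718, *PCDH7* at 1500 and *PCDH9* at 4177 CPM.

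Bipolar cells had the highest levels of *CDH8*, *CDH10*, *CDH11*, *CDH13*, *PCDH7* and *PCDH10* among the 7 named types when libraries were pooled. *CDH8*, which in mouse takes bipolar axons to the OFF layer, was 258, 399, 240 and 340 CPM. *CDH10* was 277 CPM, *CDH13* 161 CPM, *PCDH7* 853 CPM, below its level in the rods named without the upper limit on genes, and *PCDH10* 185 CPM. *CDH11* stood at 118 CPM in bipolar cells and 87.3 CPM in MG, and MG were the higher of the 2 in the NMDA library (154 against 105 CPM). Of the clustered genes, *PCDHGC3* was even across types. It ranged from 199 CPM in cones to 501 CPM in horizontal cells, while *PCDHA6* was 235 to 558 CPM in neurons but 60.1 CPM in MG and 32.8 CPM in oligodendrocytes.

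The bipolar cells were made up of 7 clusters and, when clustered again on their own, of 23 sub-clusters, 19 of which held at least 20 cells of every library. They are named here by the genes that lead them. Between the 7 clusters 17 of 25 measured genes (68.0%) differed by 8-fold or more and between the 19 sub-clusters 22 of 25 (88.0%). The shares over all genes measured were 9.13% and 26.7%. The median of highest over lowest was 4.18 for these genes and 0.71 for all genes between clusters, and 6.64 and 1.78 between sub-clusters, on the log2 scale. The cluster with the highest level was the same in 4 of 4 libraries for 16 of 24 genes, and the sub-cluster for 12 of 24.

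**Figure D2:**
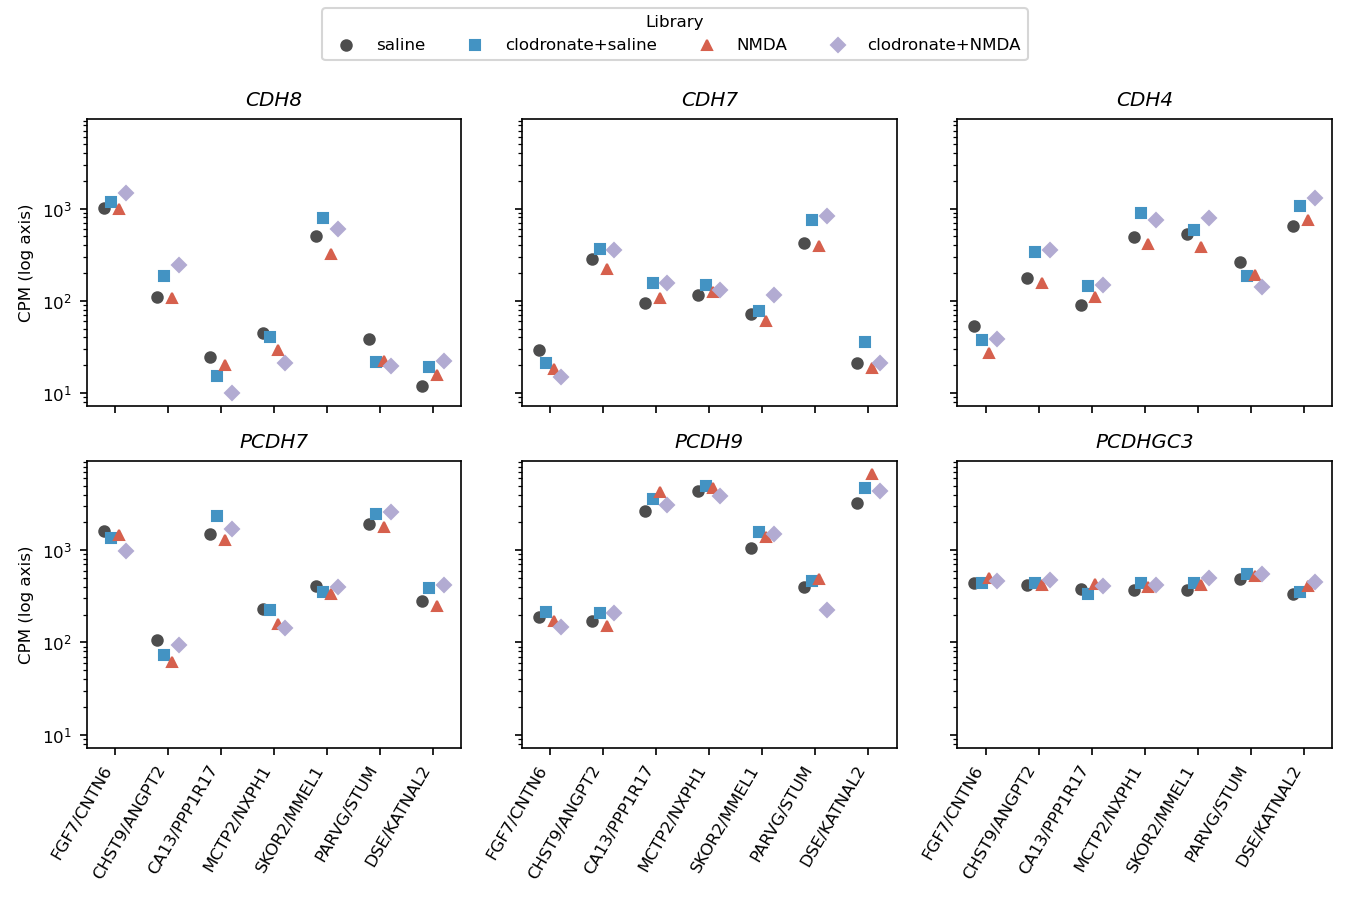
CPM (log axis) of 6 genes in the 7 bipolar clusters named by their leading genes (horizontal axis), with 1 point per library. For *CDH8* all 4 points lie highest in FGF7/CNTN6 and under 25 CPM in DSE/KATNAL2, for *CDH4* they lie highest in DSE/KATNAL2 and lowest in FGF7/CNTN6, and for *PCDHGC3* all clusters are near one level.

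Type II cadherins and their type I relative *CDH4* divided the bipolar clusters. *CDH8* reached 1118 CPM in the FGF7/CNTN6 cluster and 529 CPM in SKOR2/MMEL1, but 17.1 CPM in DSE/KATNAL2. *CDH4* showed the opposite for these clusters, with 929 CPM in DSE/KATNAL2 and 38.1 CPM in FGF7/CNTN6. *CDH7* was 563 CPM and *CDH12* 499 CPM in PARVG/STUM, *CDH11* was 369 CPM in CHST9/ANGPT2, and *CDH6* was 214 CPM in FGF7/CNTN6. *PCDH9* was 4753 CPM in DSE/KATNAL2 and 4505 CPM in MCTP2/NXPH1 but 179 CPM in CHST9/ANGPT2. *PCDH7* was 2123 CPM in PARVG/STUM and 82.2 CPM in CHST9/ANGPT2, and *PCDH11X* was 1525 CPM in SKOR2/MMEL1 and 51.9 CPM in FGF7/CNTN6. *PCDHGC3* moved only between 385 and 528 CPM.

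**Figure D3:**
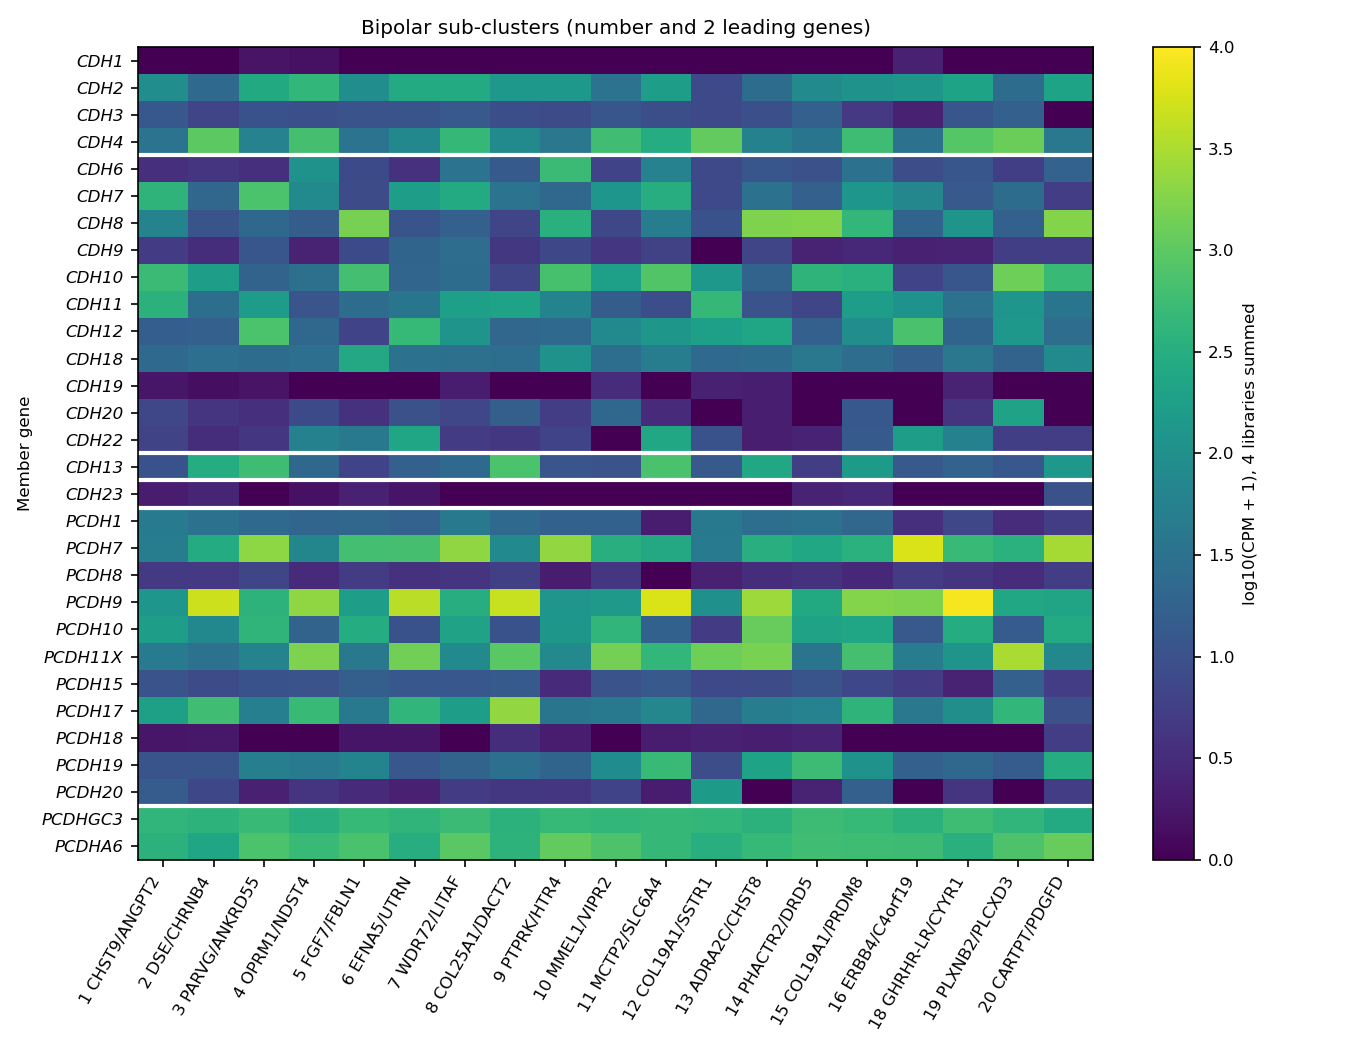
Levels of the 30 genes (vertical axis) in the 19 bipolar sub-clusters that held at least 20 cells of each library (horizontal axis), as log10(CPM + 1) over pooled libraries. The brightest square of the row is in sub-cluster 8 for *PCDH17*, 12 for *PCDH20*, 13 for *PCDH10* and 9 for *CDH6*, and *PCDHGC3* is even across the row.

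Among the sub-clusters several genes were concentrated in 1. *PCDH17* in sub-cluster 8 (COL25A1/DACT2) was 1892, 2296, 2221 and 3167 CPM, and the next highest sub-cluster had 600 CPM. *PCDH10*, which binds its own kind in the mouse brain, was 1212, 1336, 766 and 1499 CPM in sub-cluster 13 (ADRA2C/CHST8), with 432 CPM in the next. *CDH6* was 605, 424, 510 and 812 CPM in sub-cluster 9 (PTPRK/HTR4), with 109 CPM in the next. *PCDH20* was 170, 169, 108 and 164 CPM in sub-cluster 12 (COL19A1/SSTR1), with 16.1 CPM in the next. In these 4 genes the lowest library of the leading sub-cluster lay above the pooled level of every other sub-cluster of the 19.

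*PCDH7*, which in Xenopus takes part in the growth of retinal axons, was 6047, 6385, 5065 and 6096 CPM in sub-cluster 16 (ERBB4/C4orf19) and 42.3 CPM in sub-cluster 12. *PCDH9* reached 8905 CPM in sub-cluster 18 (GHRHR-LR/CYYR1), and sub-cluster 19 (PLXNB2/PLCXD3) had both the highest *PCDH11X*, 3068 CPM, and the highest *CDH10*, 1321 CPM. *CDH7* was 745 CPM in sub-cluster 3 (PARVG/ANKRD55). For some genes the order at the top could not be told. *CDH8* was 1814 CPM in sub-cluster 14 (PHACTR2/DRD5) and 1827 CPM in 20 (CARTPT/PDGFD), *CDH13*, a cadherin without a cytoplasmic tail, was 723 CPM in 8 and 717 CPM in 11 (MCTP2/SLC6A4), and *PCDH19* was 552 CPM in 14 and 520 CPM in 11. *CDH22* was 252 CPM in sub-cluster 11 and 224 CPM in 6 (EFNA5/UTRN), and it had 0 UMIs in 10 (MMEL1/VIPR2). *CDH2* ran from 446 CPM in sub-cluster 4 (OPRM1/NDST4) to 6.6 CPM in 12, and *PCDHGC3* from 273 to 568 CPM.

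Amacrine cells gave 37 sub-clusters of 34 to 605 cells, but only 9 held at least 20 cells of every library, so the order was less certain. Between those 9, 18 of 25 genes (72.0%) differed by 8-fold or more, with 14.9% of all genes measured, and 6 of 22 genes had the same highest sub-cluster in 4 of 4 libraries. The medians of highest over lowest were 4.31 and 1.41 on the log2 scale. *CDH23*, the partner of *PCDH15* in the tip links of hair cells, had its highest pooled level of the 9 in sub-cluster 7 (UTS2B/VIP), at 90.6, 192, 49.4 and 66.5 CPM, but sub-cluster 6 reached 102 CPM in 1 library on 3 UMIs. *CDH22* was 245 CPM in sub-cluster 24 (MOXD1/TOM1L1).

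Other high levels came from amacrine sub-clusters with few cells in some libraries. *CDH4* in sub-cluster 28 (TBX21/LVRN) was 1895, 2274, 1991 and 2317 CPM, on 11 to 45 cells per library. Sub-cluster 8 (OPRM1/NXPH2), with 0 clodronate+NMDA cells, had *PCDH8* at 760 CPM and *CDH18* at 1409 CPM, and sub-cluster 37 (TESC/OXTR), with 34 cells in all, had *CDH20* at 807 CPM. Sub-cluster 2 held bipolar markers and 45.2% of its cells had a Scrublet doublet score above 0.25, and sub-cluster 6 held cone markers. Both are among the 9, and sub-cluster 6 had the highest *CDH12* of them in 4 of 4 libraries. Without these 2, 16 of 22 genes (72.7%) differed by 8-fold or more, with 12.4% of all genes measured, and 7 of 19 had the same highest sub-cluster in 4 of 4 libraries.

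The comparison of NMDA with saline gives the levels of these genes 24 h after damage. In each comparison a gene was counted as higher or lower when its CPM differed by at least 2-fold and the 2 libraries together had at least 20 UMIs of it. With 1 library per group no test was possible, and differences are given as log2 ratios with their counting intervals. The comparison of NMDA with saline shares its saline library with that of clodronate+saline, and its NMDA library with that of clodronate+NMDA.

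In MG 7 of 23 measured genes were higher by at least 2-fold in the NMDA library than in saline and 5 were lower, and the shares over all genes measured were 15.8% higher and 16.6% lower. The median log2 ratio was -0.11 for the cadherin and protocadherin genes and 0.07 for all genes. The upper limit of 2500 genes per cell fell unequally on the libraries. Barcodes above it numbered 295, 575, 1088 and 1159. MG numbered 813, 442, 388 and 342 with the limit. They numbered 841, 471, 657 and 304 when all cells were clustered and named anew without it. Many NMDA MG were thus absent from this comparison, and the count past 2-fold without the limit is given below. The clearest difference was in *PCDH19*. MG of the 4 libraries had 38, 19, 451 and 63 of its UMIs, which is 11.2 CPM [7.96 to 15.4], 10.5 [6.31 to 16.4], 256 [233 to 281] and 47.1 [36.2 to 60.2]. The log2 ratio of NMDA over saline was 4.51 [4.03 to 5.03], and the NMDA level in MG reached that of ganglion cells of the same library (216 CPM), whereas bipolar cells had 80.4 CPM there and 88.2 CPM in saline.

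**Figure D4:**
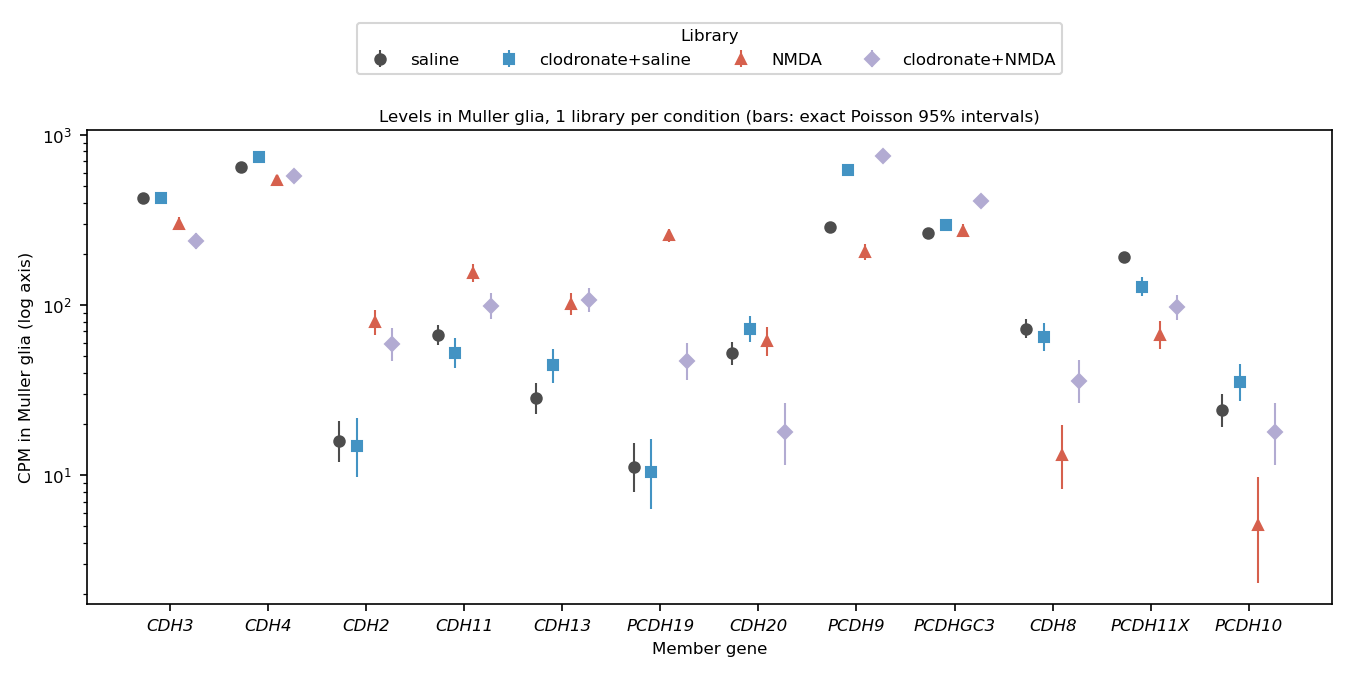
CPM (log axis) of 12 genes in MG of each library, with exact 95% Poisson intervals as bars. *PCDH19* stands at 256 CPM in the NMDA library and at 47.1 CPM or less in the others, and *PCDH9* is higher in both clodronate libraries.

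The other genes with higher levels in NMDA-treated MG came from several families. *CDH2* was 16.0, 14.9, 79.0 and 59.0 CPM, a log2 ratio of NMDA over saline of 2.31 [1.84 to 2.79], so that the 2 NMDA libraries lay above the 2 others. *CDH13* was 28.4, 44.1, 102 and 108 CPM (1.84 [1.48 to 2.21]) and *CDH11*, known from mesenchymal cells, was 66.9, 52.4, 154 and 98.6 CPM (1.20 [0.94 to 1.47]), with the same split of the libraries. *CDH6* had a ratio of 2.01 [0.86 to 3.26] on 21 against 10 UMIs. *PCDH15* was 10.1, 22.1, 41.5 and 42.6 CPM and *CDH18* 18.3, 9.93, 40.9 and 88.2 CPM. The summed level of 8 cone markers in the same MG was 292, 167, 811 and 1196 CPM and that of 6 rod markers 177, 118, 904 and 365 CPM, and the part of these in the values of *PCDH15* and *CDH18* was not tested. With cells of more than 2500 genes kept, the ratios of *PCDH15* and *CDH18* turned to -1.39 and -1.51.

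The 5 genes lower by at least 2-fold in NMDA-treated MG each had a higher pooled level in at least 1 type of neuron than in MG. The same held for each of the 7 genes that were higher. *CDH8* was 72.8, 65.1, 13.1 and 35.9 CPM in MG, a log2 ratio of -2.48, and *PCDH11X*, a protocadherin of the X chromosome in mammals, was 191, 129, 67.1 and 97.1 CPM, a ratio of -1.51. *CDH10* had a ratio of -2.18, *PCDH10* of -2.24 and *PCDH18* of -2.34. In these MG the sum over 7 bipolar markers was 577, 688, 283 and 392 CPM. Over 7 amacrine markers it was 340, 329, 164 and 136 CPM. The sums over cone and rod markers were instead higher with NMDA. In saline and NMDA they were 292 and 811 CPM for cones and 177 and 904 CPM for rods. The sum over 8 MG markers was 32558, 30952, 18611 and 20029 CPM. What part these signals have in the *CDH* and *PCDH* values was not tested. The glial cadherin *CDH3* had a ratio of -0.49 and *CDH4* of -0.24 [-0.35 to -0.13], both short of 2-fold.

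In bipolar cells 0 of 26 measured genes differed by at least 2-fold between NMDA and saline, with 3.66% of all genes higher and 2.83% lower, and the medians were -0.15 and 0.01. The nearest with many UMIs was *CDH2*, at 127, 144, 195 and 142 CPM, with a log2 ratio of 0.62 [0.50 to 0.75]. It was higher in NMDA in 12 of the 15 sub-clusters counted for it, each with at least 50 cells in each library. Not every sub-cluster of that size was counted for every gene. In sub-cluster 4 *CDH2* was 259 CPM in saline and 649 CPM in NMDA, a ratio of 1.33. *PCDH9* was 1748 CPM in saline and 2359 CPM in NMDA, and higher in 14 of 19 sub-clusters, while *PCDH7* was lower in 15 of 18. The share over all genes is not given for these sub-cluster counts. Sub-clusters of 1 library share that library, so they are no replicates.

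**Figure D5:**
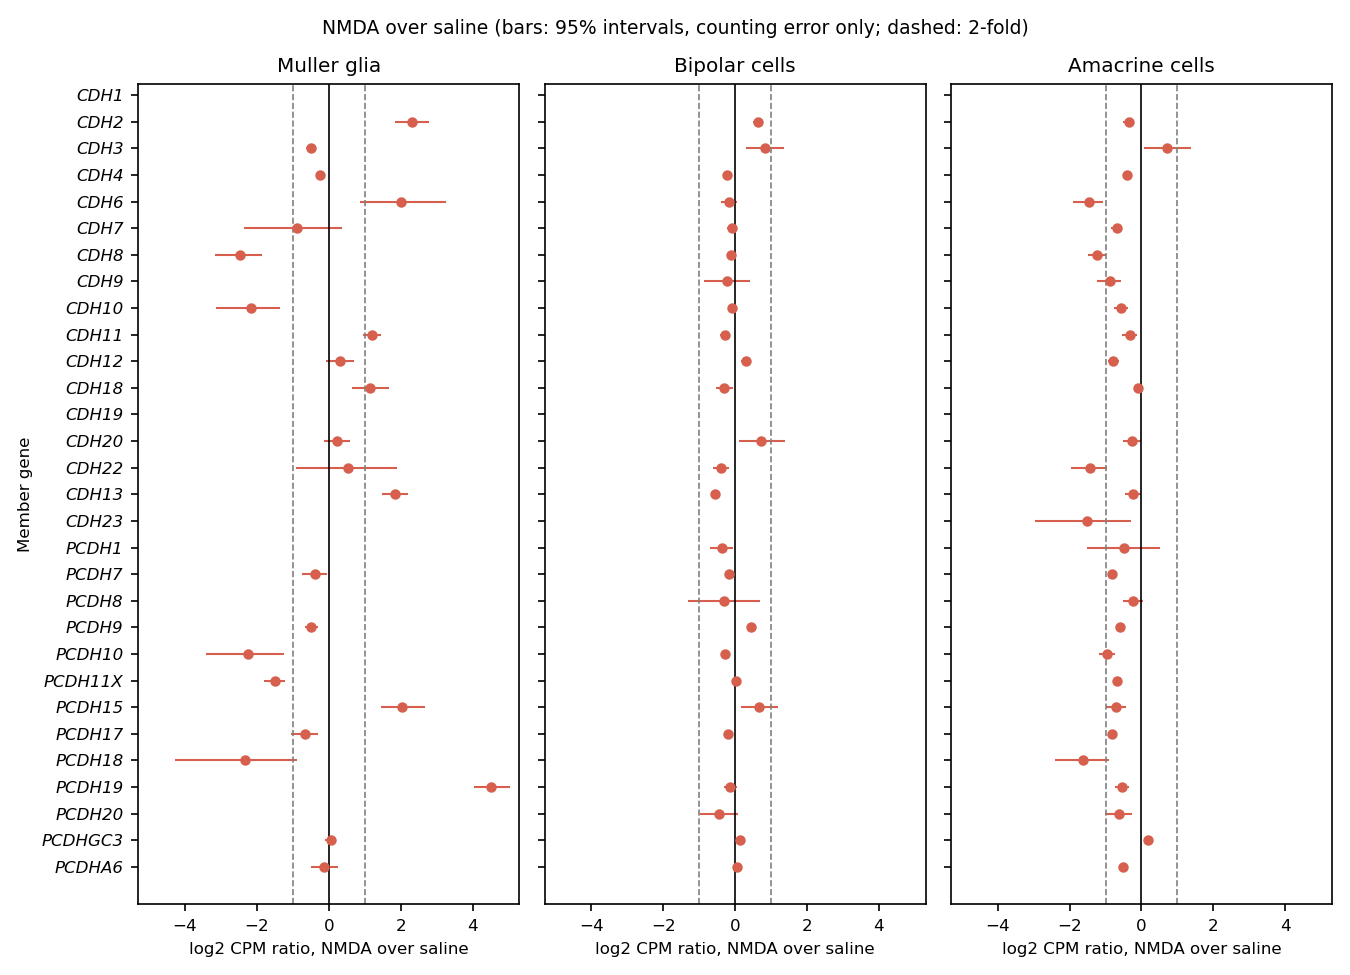
Log2 ratios of NMDA over saline (horizontal axis) with exact 95% intervals for each measured gene in MG, bipolar and amacrine cells, and dashed lines at 2-fold. The points of MG spread from -2.48 to 4.51, those of bipolar cells stay inside the lines, and those of amacrine cells lie mostly left of 0.

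In amacrine cells 0 of 28 measured genes were higher by at least 2-fold with NMDA and 5 were lower, against 6.38% and 4.40% of all genes. The median was -0.61 for the cadherin and protocadherin genes and 0.11 for all genes. *CDH6* was 53.4, 46.0, 19.3 and 40.1 CPM, a ratio of -1.47 [-1.89 to -1.07], and *CDH8* was 127, 130, 53.6 and 72.6 CPM, a ratio of -1.24. *CDH22* had a ratio of -1.43, *CDH23* of -1.53 and *PCDH18* of -1.62. Shorter of 2-fold but on many UMIs, *PCDH17* had -0.82 [-0.90 to -0.74], *PCDH7* -0.82 [-0.91 to -0.73] and *PCDH11X* -0.69 [-0.77 to -0.62]. *PCDHGC3*, at 0.19 [0.09 to 0.30], and *CDH3*, at 0.71 [0.06 to 1.36], were on the other side of 0.

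The amacrine cells of the libraries were also of different kinds. The number of them was 2046, 2796, 1431 and 1401, the sum over 7 amacrine markers was 7526, 7426, 4015 and 4928 CPM, and some sub-clusters came almost only from NMDA-treated or from other libraries. Among the sub-clusters counted for a gene, each with at least 50 cells in both libraries, *PCDH9* was lower with NMDA in 5 of 5. *CDH8* was lower in 3 of 3, and *PCDH17* in 3 of 5 with a median of -0.05. The share over all genes is not given for these counts, and sub-clusters of 1 library are no replicates. With every sub-cluster given the same weight the ratio of *CDH6* was -0.73. Fewer cells of a kind and less RNA per cell were not separated here by any test.

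Clodronate without damage was compared with saline to show these genes when microglia were depleted. In MG 3 of 22 genes were higher by at least 2-fold and 0 were lower, with 5.81% and 3.70% of all genes, and medians of 0.18 and 0.10. *PCDH9* was 288 CPM in saline and 621 CPM in clodronate+saline, a log2 ratio of 1.11 [0.99 to 1.24]. *PCDH15* had 1.13 [0.44 to 1.84] on 34 and 40 UMIs, and the counting interval of *CDH6* (1.28) included 0. *PCDH9* fell short of 2-fold with TMM scaling (0.95) and with cells of more than 2500 genes kept (0.99), and so did *PCDH15* (0.97 and 0.92). In bipolar cells 1 of 26 was higher and 0 lower (3.88% and 3.37% of all genes, medians 0.09 and 0.05). It was *CDH20*, at 5.46, 15.9, 9.08 and 6.63 CPM, a ratio of 1.54 [0.96 to 2.15] on 34 and 91 UMIs. The bipolar sub-cluster with the highest *CDH20* was 19, at 38.8, 506, 199 and 140 CPM, with 61 clodronate+saline cells. In amacrine cells 0 of 29 differed by at least 2-fold in either direction (3.65% and 2.20% of all genes, medians -0.12 and 0.04).

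Clodronate before damage was compared with NMDA alone to show these genes in damaged retinas with microglia depleted. In MG 4 of 20 were higher by at least 2-fold and 3 were lower, with 7.34% and 5.75% of all genes, and medians of 0.21 and 0.07. *PCDH19* was lower in clodronate+NMDA than in NMDA, with a ratio of -2.45 [-2.85 to -2.06], and its 47.1 CPM still lay above the intervals of the saline and clodronate+saline libraries. *CDH20*, a type II cadherin of the nervous system, was 52.1, 72.3, 61.4 and 17.9 CPM in MG, a ratio of -1.78 [-2.48 to -1.13], and was lowest in clodronate+NMDA of all 4 libraries. *CDH6* had -2.41 [-4.80 to -0.67] on 3 against 21 UMIs. *PCDH9* was 205 CPM in NMDA and 751 CPM in clodronate+NMDA, a ratio of 1.87 [1.70 to 2.05], so MG of the 2 clodronate libraries lay above MG of the 2 others. *CDH8* (1.46), *PCDH10* (1.81) and *CDH18* (1.11) were higher as well, but with cells of more than 2500 genes kept *PCDH10* was at 0.74 and *CDH18* at 0.94. *CDH3* was 301 and 239 CPM and *CDH4* 547 and 575 CPM.

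In bipolar cells 1 of 26 was higher by at least 2-fold in clodronate+NMDA and 3 were lower, with 3.01% and 6.26% of all genes, and medians of -0.03 and 0.04. *CDH4* was 258 CPM in NMDA and 592 CPM in clodronate+NMDA, a ratio of 1.20 [1.11 to 1.29]. It was higher in 9 of the 13 sub-clusters counted for it, each with 50 or more cells in each library (median 0.66, from -1.08 to 1.65). The share over all genes is not given for this count, and sub-clusters of 1 library are no replicates. With equal weight to the sub-clusters the ratio of *CDH4* was 0.84. The make-up of the bipolar cells also differed between the 2 libraries. The CA13/PPP1R17 cluster held 849 of 4806 bipolar cells in NMDA and 205 of 2675 in clodronate+NMDA. The part of this in the ratios over all bipolar cells was not tested. *CDH9* had -1.28 [-2.44 to -0.27], or -0.51 with equal weight to the sub-clusters, and *PCDH8* -1.76 with an interval that included 0. *CDH3* had -1.42 in bipolar cells and -1.02 in amacrine cells, at levels of 5.10 to 13.9 CPM in these 2 types and libraries. The sum over 8 MG markers in bipolar cells was 890 and 413 CPM in the same 2 libraries and in amacrine cells 632 and 281 CPM, and its part in *CDH3* was not tested.

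In amacrine cells 3 of 29 were higher by at least 2-fold in clodronate+NMDA than in NMDA and 1 was lower, with 2.95% and 4.16% of all genes, and medians of 0.04 and -0.02. The 3 were *CDH23* (2.12 [0.93 to 3.53], 36 against 7 UMIs), *PCDH18* (1.73 [1.01 to 2.52]) and *CDH6* (1.06 [0.63 to 1.50]), and the lower one was *CDH3*. With every sub-cluster given the same weight the ratio of *CDH6* was 0.36.

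The 2 clodronate comparisons use 4 separate libraries, so a gene can be read in both. The genes below are only some of the 26 measured in bipolar cells. How many of the 26 had the same sign in both comparisons, and the share over all genes, are not given. *PCDHA6* in bipolar cells was 626, 445, 653 and 449 CPM, and both clodronate libraries were below both others, with ratios of -0.49 [-0.56 to -0.42] and -0.54 [-0.62 to -0.46]. It was lower in 19 of 19 bipolar sub-clusters for clodronate+saline over saline (median -0.44) and in 14 of 16 for clodronate+NMDA over NMDA (median -0.39). *CDH8* was higher in the clodronate library in both, by 0.63 and 0.50 over all bipolar cells, and in 8 of 9 and 7 of 7 sub-clusters. *CDH7* was higher by 0.48 and 0.62, in 10 of 11 and 7 of 8 sub-clusters. *PCDH19* was lower in 8 of 8 and 7 of 8 sub-clusters, with medians of -0.60 and -0.37. *PCDH9*, in contrast, was higher in 15 of 19 and lower in 13 of 15. Sub-clusters of 1 library share that library, so they are no replicates, and none of these differences reached 2-fold over all bipolar cells.

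The genes around the cadherins were described from 4 lists. Of 13 catenins and cytoplasmic partners, all measured in MG, 2 were higher by at least 2-fold with NMDA, the alpha-catenin of neurons *CTNNA2* (1.30) and the p120-like *ARVCF* (2.06 [1.89 to 2.24]), and 1 was lower, plakoglobin *JUP* (-1.17), with a list median of 0.52. Of all genes measured in MG, 15.8% were higher and 16.6% lower in that comparison, so 2 of 13 is near the background. *ARVCF* was 117, 137, 488 and 290 CPM in MG. In amacrine cells *CTNNA1*, *VCL* and *CTNNBIP1* were higher with NMDA and none was lower, against 6.38% and 4.40% of all genes, and in bipolar cells 0 of 13 differed. For clodronate+NMDA over NMDA, *CTNNA3* and *JUP* were at least 2-fold higher in MG, where 7.34% of all genes were. For clodronate+saline over saline, *CTNNA3* was higher in bipolar cells, where 3.88% of all genes were. No other catenin or partner passed 2-fold in these types in the 2 clodronate comparisons. Of the other cadherin superfamily, 9 of 24 were measured in MG. *CDHR1* and *RET* were higher with NMDA, and *FAT3*, at 353 and 150 CPM, and *CLSTN2* were lower. The cone and rod marker sums in MG, given above, were also higher with NMDA, and their part in the *CDHR1* value was not tested. In NMDA-treated amacrine cells *FAT4* was lower (-1.88), and in bipolar cells *FAT1* was higher (1.37). In bipolar cells 4 of 9 were lower in clodronate+NMDA than in NMDA, against 6.26% of all genes, with a list median of -0.41. They were *CDHR2*, *FAT1*, *FAT3* and *RET*, all under 20 CPM, and the counting interval of *CDHR2* included 0. For NMDA over saline, 7 of 12 proteases that cleave cadherins were measured in MG and in bipolar cells and 8 in amacrine cells. Of these only *MMP9* in amacrine cells passed 2-fold, where 6.38% of all genes were higher. Of 6 transcriptional repressors of cadherin genes 3 were measured in each of these types. Only *ZEB1* in MG passed 2-fold (1.59), where 15.8% of all genes were higher.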

How the data were processed

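The authors aligned the reads with Cell Ranger 7.0.1 to GRCg7b, per the submitters' processing notes, and deposited for each library a matrix of UMI counts per gene and cell barcode with its gene and barcode lists. The counts are not normalized. After the study's methods, a barcode was kept when it had from 200 to 2500 genes and no more than 5% of its UMIs from the mitochondrion, and the kept cells were clustered over all libraries on 10 components of 2000 variable genes (Leiden, resolution 0.8, leidenalg 0.10.2) with the cadherin and protocadherin genes left out. Clusters were named from marker lists, by a rule set after the clusters were seen. Bipolar and amacrine cells were clustered again on 15 components. Doublets were scored with Scrublet (scanpy 1.11.5) and none were removed. Levels are UMI sums per 1000000 UMIs of a type in a library with exact Poisson intervals, and log2 ratios have exact conditional binomial intervals (scipy 1.17.1, 95%). No test was made, since each group is 1 library. The scripts were tested on simulated counts. Alternatives were TMM scaling (edgeR 4.0.16), other UMI minimums, no upper limit on genes, resolution 0.4, exclusion of the 8% highest Scrublet scores or of hemoglobin, mitochondrial and ribosomal genes, equal weight to sub-clusters, and exclusion of amacrine sub-clusters with markers of another type, the last 2 added after the data were seen. The genes named are those at 50 CPM or more in a named type and those past 2-fold. The members and lists were chosen with earlier results of these data known. Some clusters are not reported here.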

Additional observations from a re-analysis of the deposited data

Results flagged for a closer look

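*CDH6* had opposite signs in MG and amacrine cells. Its log2 ratio of NMDA over saline was 2.01 in MG and -1.47 in amacrine cells, and that of clodronate+NMDA over NMDA was -2.41 in MG and 1.06 in amacrine cells, all past 2-fold with counting intervals that leave out 0. The difference between the types was not tested, since each group is 1 library, and the 2 comparisons share the NMDA library. With cells of more than 2500 genes kept, the same 4 ratios were 1.15 and -0.61, then -1.12 and 0.92, so those in amacrine cells fell short of 2-fold. With equal weight to the sub-clusters those in amacrine cells were -0.73 and 0.36. The values in MG rest on 10, 13, 21 and 3 UMIs in the 4 libraries.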

How the results depend on the processing

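Of the differences of single genes past 2-fold, 2 had a counting interval that included 0 (*CDH6* in MG for clodronate+saline over saline, *PCDH8* in bipolar cells for clodronate+NMDA over NMDA) and were not followed singly. Of the other 34, every one kept its direction and passed 2-fold without the highest Scrublet scores and without hemoglobin, mitochondrial and ribosomal genes, and 32 did so with TMM scaling, which shifted log2 ratios by up to -0.16 (MG, clodronate+saline over saline). The counts past 2-fold without the highest Scrublet scores were 2 in place of 3 in MG for clodronate+saline over saline and 3 in place of 4 in bipolar cells for clodronate+NMDA over NMDA. With cells of more than 2500 genes kept, 2 reversed in MG for NMDA over saline, *CDH18* to -1.51 and *PCDH15* to -1.39, and 6 fell short of 2-fold. All cells were clustered and named anew in that setting, so the cells counted as a type changed too. That setting also gave 11 in place of 6 amacrine genes with the same highest sub-cluster in 4 of 4 libraries. Its counts past 2-fold were 18 in place of 12 in MG for NMDA over saline, and the full split by direction is not given. The genes added included 4 lower in NMDA than in saline. They were *PCDH17* (22.3 against 74.9 CPM), *PCDH7* (37.5 against 83.0), *CDH7* (3.56 against 9.81) and *CDH9* (2.63 against 5.89). *CDH1* was added as higher (5.82 against 1.68). The balance of 7 higher and 5 lower genes in MG thus depended on the limit. For clodronate+saline over saline the counts without the limit were 1 in place of 3 in MG and 1 in place of 0 in amacrine cells. With a minimum of 1 UMI, which admits genes with very few counts, the counts were 4 in bipolar cells for NMDA over saline, 8 in MG, 3 in bipolar and 1 in amacrine cells for clodronate+saline over saline, and 11 in MG and 8 in bipolar cells for clodronate+NMDA over NMDA. With a minimum of 100 UMIs they were 1 in MG for clodronate+saline over saline, and 4 in MG, 2 in bipolar and 1 in amacrine cells for clodronate+NMDA over NMDA. Equal weight to the sub-clusters, chosen after seeing the data, gave 2 in bipolar cells for NMDA over saline, 1 in amacrine cells for clodronate+saline over saline, and 2 in bipolar and 2 in amacrine cells for clodronate+NMDA over NMDA, and 4 of 11 gene differences fell short of 2-fold. The causes of these changes were not tested. Depth limits the genes under 20 UMIs in a pair of libraries, for which no difference was detectable. No paired analysis was possible because each group is 1 library.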

Other observations

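The smaller cell types gave further differences, on fewer cells, and several changed when cells with more than 2500 genes were kept, which gave 2326 cones and 2102 ganglion cells. In cones *PCDH9* was 567, 1309, 2270 and 1301 CPM, and with those cells kept 1645, 1705, 2595 and 1586 CPM, so that NMDA was the highest of the 4 libraries both ways but saline the lowest only in the first. *CDH2* in cones was 40.0, 79.6, 90.4 and 176 CPM, and 82.5, 120, 121 and 171 CPM with those cells kept, lowest in saline and highest in clodronate+NMDA both ways. The NMDA library held 75 ganglion cells with 176284 UMIs in all, so low levels there rest on few UMIs. In ganglion cells 2 of 23 measured genes were at least 2-fold higher in NMDA than in saline and 3 were lower. Over all genes it was 329 and 472 of 6131. *CDH9* in ganglion cells was 91.0, 98.9, 28.4 and 28.6 CPM, lower in both NMDA libraries. With cells of more than 2500 genes kept it was 105, 109, 40.3 and 51.7 CPM, with the same split. *CDH20* was 82.5, 76.2, 11.3 and 42.9 CPM, and 50.9, 47.2, 24.6 and 33.6 CPM with those cells kept, with the same split. Counting intervals are not given for these smaller types. In horizontal cells *PCDH10* was 49.4, 21.5, 19.5 and 26.6 CPM and *PCDH19* was 11.2, 28.7, 30.1 and 28.4 CPM. Saline was thus the highest library for *PCDH10* and the lowest for *PCDH19*. The saline horizontal cells had 627142 UMIs in all, so these levels rest on few UMIs. Values with cells of more than 2500 genes kept are not given for horizontal cells.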
